A study of Mus musculus with 4 samples.

Results

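The genes described here encode the nuclear subunits of respiratory complexes II, III, IV and V and the electron carrier cytochrome c. They were taken from a list of 41 gene symbols, and 40 of them had a probe set with a single gene name, of 15102 genes tested in the whole data set; Cox7b was not analysed here. Atp5f1 was read from the probe sets named Atp5pb, its current symbol. Where a gene had several probe sets the brightest was read, and levels and differences are on the log2 scale of the deposited values, so that a difference of 1 is a 2-fold change. Brightness differs between probe sets for reasons of their design, so levels are compared between groups and not between genes.

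RNA came from a shin muscle, the tibialis cranialis, of 8 male C57Bl/6 mice aged 22 weeks at collection. The ProMyo group is the muscle of the leg injected with AAV8 ProMyo, an adeno-associated virus that carries the myostatin propeptide, a natural inhibitor of this brake on muscle growth. The saline group is the same muscle of the opposite leg of the same mice, injected with saline and with no empty vector, so an effect of the vector itself cannot be told apart from that of the propeptide. All mice had been moved to a high fat diet at 8 weeks of age, were injected 4 weeks later, and were kept for another 10 weeks. Each group has 2 arrays, one with RNA pooled from animals 1-4 and one from animals 5-8, so differences between single mice are not visible. The labels name no promoter for the vector, and no group on a normal diet is among the samples used here. Subunits encoded by the mitochondrial genome were not analysed here.

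The respiratory chain passes electrons from nutrients to oxygen in the inner mitochondrial membrane. Complex II (succinate dehydrogenase) feeds electrons from the citrate cycle into ubiquinone, complex III passes them on to cytochrome c, and complex IV (cytochrome c oxidase) hands them to oxygen. Complexes III and IV pump protons, and complex V, the ATP synthase, uses the proton gradient to make ATP. In striated muscle several subunits of complex IV exist as a muscle form beside a form found in most tissues.

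The members' upstream sequences are given first because they show how far the promoters of these genes differ from each other. Sequences of the 250 bases before the annotated start were found for 31 of the 40 genes in RefSeq, build GRCm38.p6. The letters searched were GCGCNTGCG for nuclear respiratory factor NRF1, CCGGAAG for ETS factors such as GABPA, AAGATGG for YY1, TCAAGGTCA for the oestrogen-related receptors and GGGCGG for Sp1, on both strands, with overlapping matches of a motif taken as 1 site. A match to the NRF1 letters was present in 9 of the 31 genes (29.0%), against 10.8% of the 12060 tested genes with such a sequence and 5.88% of all 27025 genes in the table. The ETS letters matched in 8 of 31 (25.8%), against 13.2% of tested genes, and 4 genes had both. The Sp1 letters matched in 8 of 31 (25.8%), against 57.9% of tested genes. The YY1 and oestrogen-related receptor letters were each found in 1 of the 31, against 4.96% and 0.357% of tested genes. These are letter matches only, and no binding was measured.

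Printed 5′ to 3′ on the gene's own strand, with NRF1, ETS, YY1 and oestrogen-related receptor matches in capitals, are the windows of Sdha (chr13:74350241-74350490, minus strand, 3 NRF1 matches), Cycs (chr6:50566570-50566819, minus strand, 1 NRF1 match), the ubiquitous isoform gene Cox6a1 (chr5:115348959-115349208, minus strand, 2 NRF1 matches and 1 ETS match) and the muscle isoform genes Cox7a1 (chr7:30183921-30184170, plus strand) and Cox8b (chr7:140900447-140900696, minus strand), which had no match to any of these 4 motifs. They are shown because these genes recur in the comparisons that follow. The ubiquitous isoform genes Cox7a2 and Cox8a also had no match to these 4 motifs, and for the muscle isoform gene Cox6a2 no sequence was found. The matches therefore do not part ubiquitous from muscle forms.
Sdha: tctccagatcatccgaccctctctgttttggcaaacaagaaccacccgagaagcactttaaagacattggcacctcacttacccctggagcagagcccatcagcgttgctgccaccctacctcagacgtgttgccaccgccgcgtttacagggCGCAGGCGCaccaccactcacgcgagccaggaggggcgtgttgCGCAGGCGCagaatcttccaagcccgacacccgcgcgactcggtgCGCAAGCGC
Cycs: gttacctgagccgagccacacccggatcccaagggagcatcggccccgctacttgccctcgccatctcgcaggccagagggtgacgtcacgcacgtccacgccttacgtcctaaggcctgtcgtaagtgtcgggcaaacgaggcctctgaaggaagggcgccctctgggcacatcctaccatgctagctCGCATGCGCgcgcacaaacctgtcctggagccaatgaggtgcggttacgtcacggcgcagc
Cox6a1: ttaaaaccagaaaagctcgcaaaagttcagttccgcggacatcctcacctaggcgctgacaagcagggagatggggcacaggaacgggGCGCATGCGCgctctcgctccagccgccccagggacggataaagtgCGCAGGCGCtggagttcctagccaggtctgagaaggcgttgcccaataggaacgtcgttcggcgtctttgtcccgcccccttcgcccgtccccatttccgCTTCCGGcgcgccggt
Cox7a1: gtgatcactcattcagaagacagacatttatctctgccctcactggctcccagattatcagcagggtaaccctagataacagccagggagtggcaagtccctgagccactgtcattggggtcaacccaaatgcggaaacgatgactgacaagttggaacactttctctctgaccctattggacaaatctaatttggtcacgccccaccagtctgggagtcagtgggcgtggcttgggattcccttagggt
Cox8b: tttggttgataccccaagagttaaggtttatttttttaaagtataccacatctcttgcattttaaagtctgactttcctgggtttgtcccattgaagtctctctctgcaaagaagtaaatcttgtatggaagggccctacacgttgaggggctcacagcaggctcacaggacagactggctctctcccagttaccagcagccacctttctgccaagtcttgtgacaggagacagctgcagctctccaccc

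The arrays were checked before the genes were compared. All 10 muscle fibre markers lay above the brightest background control, and 9 of them were higher in ProMyo muscle in each pool (median difference 0.14). Their log2 values summed to 115 and 115 in ProMyo muscle, against 114 and 113 in saline muscle. Of 6 slow fibre markers, 1 was higher and 3 were lower in each pool (median -0.20). The log2 values of these 6 summed to 21.1 and 21.5 in ProMyo muscle, against 21.7 and 22.6 in saline muscle. The slow fibre marker that was higher, Tnni1, lay below the brightest background control on every array, and the other 5 lay above it. Of 7 macrophage markers 4 were lower in each pool (median -0.31). The log2 values of the 7 summed to 24.41 and 23.45 in ProMyo muscle, against 26.66 and 24.97 in saline muscle. Of 6 fibroblast markers 1 was higher and 4 were lower (median -0.15, from -0.96 at Pi16 to 0.63 at Lum). Of 5 endothelial markers 3 were higher (median 0.13). None of the 4 measured adipocyte markers and neither heart marker was above the background control on all arrays. The saline array of animals 5-8 stood apart, with hybridization controls at a mean of 11.1, against 10.1 to 10.2 on the other 3 arrays (log2). The log2 signal of the 3' end minus that of the 5' end of Gapdh, which follows RNA quality, was 0.58 and 0.74 on the ProMyo arrays and 0.90 and 0.81 on the saline arrays. For Actb the same measure was larger, 1.64 and 1.72 on the ProMyo arrays and 1.96 and 1.80 on the saline arrays. The part of cell and fibre composition, of that array and of RNA quality in the differences below was not tested. In whole muscle, fewer mitochondria-rich cells and less of a transcript per cell cannot be told apart.

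Transcripts of complexes II to V differed little between ProMyo and saline muscle. Across the 40 genes the median difference was 0.024 (ProMyo minus saline), against 0.013 over all genes tested, and 36 of the 40 lay within 0.2 of no difference. The 4 outside that band were Cox7c (0.63) and Uqcrc1 (0.25), with higher values in ProMyo muscle in each pool, Cox8b (-0.31), which was lower in both, and Cox8a (-0.21), which went opposite ways in the pools. No member passed limma's test across all 15102 genes (smallest adjusted p = 0.82, for Cox7c), where 0 genes, 0%, passed, and none had an unadjusted p under 0.05, as 874 genes (5.79%) did.

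**Figure D1:**
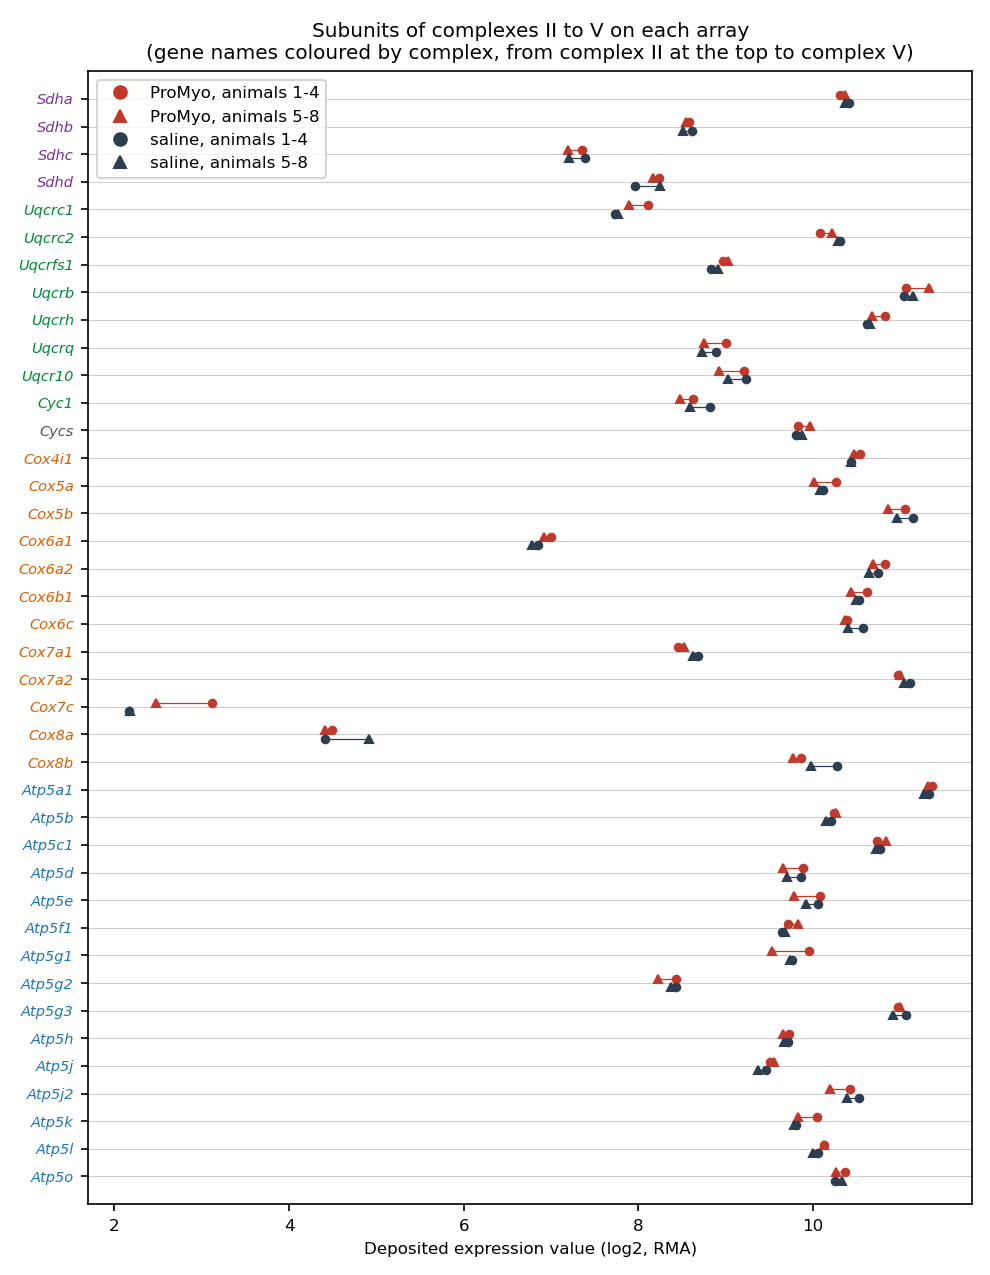
Deposited log2 expression value (x axis) of each of the 40 genes (y axis) on the ProMyo arrays (red, upper line of each gene) and the saline arrays (dark, lower line); circles are pools of animals 1-4, triangles animals 5-8. In most genes the red and dark points overlap or lie side by side, 27 genes are above 9 on every array, and Cox7c and Cox8a are the 2 that stay below 6. Positions of different genes are not comparable.

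The 95% confidence interval of limma included no difference for all 40 genes, and for 39 of them it lay within a 2-fold change in either direction, Cox7c being the exception. For 34 of the 40 it lay within a 1.5-fold change in either direction. These intervals and the SEs given below are drawn by limma towards a variance shared by all 15102 genes. They are thus not the spread of each gene alone. The median SE of the 40 genes was 0.16, against 0.091 in limma with a variance trend. Leaving Cox7c aside, the lowest bound of any interval was a ratio of 0.586, at Cox8a, and the highest was 1.60, at Uqcrc1. The 2 ProMyo arrays differed by a median of 0.12 across the genes and the 2 saline arrays by 0.072, against 0.19 and 0.24 over all genes. The median size of the difference between the groups, regardless of sign, was 0.086 in these genes, 0.16 over all genes and 0.099 in the 1511 brightest genes. In 12 of the 40 genes the difference between the group means was larger than the gap between the arrays of either group, as it was in 23.1% of all genes.

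In direction the genes were mixed. In both pools of animals 16 of 40 were higher in ProMyo muscle, as were 29.0% of all genes, and 12 were lower, as were 24.0% of all genes; the other 12 went opposite ways. Both ProMyo arrays lay above both saline arrays in 11 genes, which is also true of 17.8% of all genes, and below both in 6 genes, which is true of 15.7% of all genes. None of the 40 was at least 1.5-fold apart in the same direction in both pools, as were 1.6% of all genes. Of the 1511 brightest genes, 628 were higher and 289 lower in ProMyo muscle in both pools. Both ProMyo arrays lay above both saline arrays in 424 of these 1511 and below both in 167. Only 4 of them were at least 1.5-fold apart in the same direction in both pools. With quantile normalization of the arrays 9 members were higher in both pools and 16 lower, against 25% and 29.9% of all genes, so the balance turned. With 1 ProMyo array left out, the members whose other ProMyo array was below both saline arrays numbered 6 without the array of animals 5-8 (27.3% of all genes) and 18 without that of animals 1-4 (32.0% of all genes). The median over the 40 genes was -0.026 and 0.064 without the ProMyo array of animals 1-4 or 5-8. It was 0.047 and 0.0075 without the saline array of animals 1-4 or 5-8. Quantile normalization of all 4 arrays gave -0.012, so the sign of the median rested on 1 array and on the scaling.

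**Figure D2:**
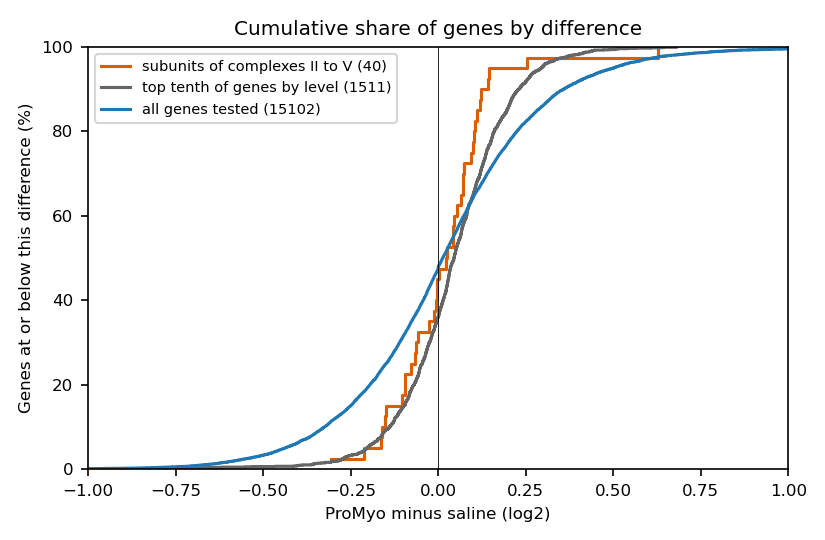
Share of genes (y axis, percent) whose difference between ProMyo and saline muscle is at or below the log2 value on the x axis, for the 40 subunit genes, the 1511 brightest genes and all 15102 genes tested. The subunit genes run close to the brightest genes and are more tightly gathered around 0 than all genes, with medians of 0.024, 0.045 and 0.013; 1 subunit gene, Cox7c, is at 0.63.

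Complex II had 4 genes, with differences between -0.056 and 0.10 and a median of -0.015, which ran from -0.067 to 0.034 with 1 array left out. Sdha, the flavoprotein that oxidises succinate, was at 10.31 and 10.36 in ProMyo muscle of animals 1-4 and 5-8, against 10.41 and 10.37 in saline muscle, a difference of -0.056 ± 0.15 (SE; limma, adjusted p = 0.97, n = 2 arrays per group). Both ProMyo values were the lower ones, but the difference within animals 5-8 was only -0.0088, and the next brightest probe set of Sdha read 0.094. Sdhb, the iron-sulphur subunit, was at 8.58 and 8.55 in ProMyo muscle, against 8.62 and 8.52 in saline muscle, so the groups overlapped. Sdhd, a membrane anchor, had the highest difference of the complex, with 8.24 and 8.17 in ProMyo muscle, against 7.96 and 8.25 in saline muscle. That difference of 0.10 ± 0.18 came from animals 1-4 (0.28), while animals 5-8 gave -0.077. The other anchor, Sdhc, stood at -0.026.

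Complex III had a median of 0.085, with 5 of 8 genes higher and 3 lower in both pools. Its median was 0.068 within animals 1-4 and 0.029 within animals 5-8, and without the ProMyo array of animals 1-4 it was -0.0040. With all 4 arrays this median was above those of the other complexes, but it was below that of complex V without the ProMyo array or without the saline array of animals 1-4. Uqcrc1, a core protein of the complex, was at 8.11 and 7.89 in ProMyo muscle, against 7.73 and 7.76 in saline muscle. Both ProMyo pools were above both saline pools, and the difference was 0.25 ± 0.17, a ratio of 1.19 with an interval of 0.888 to 1.60 (limma, adjusted p = 0.85). The other core protein, Uqcrc2, went the other way by -0.15, with -0.24 in animals 1-4 and -0.063 in animals 5-8, and its next brightest probe set read -0.047. Cyc1, cytochrome c1, had the lowest difference of the complex: 8.63 and 8.48 in ProMyo muscle, against 8.81 and 8.60 in saline muscle. That difference of -0.15 ± 0.17 was smaller than the gap between the saline arrays at this gene, and the groups overlapped. Uqcrfs1, the Rieske iron-sulphur protein, was close in both pools with 0.13 and 0.11, a mean of 0.12. The small subunits Uqcrh, Uqcrb, Uqcrq and Uqcr10 stood at 0.12, 0.099, 0.071 and -0.067.

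Cycs, the somatic cytochrome c that shuttles electrons between complexes III and IV, was at 9.83 and 9.96 in ProMyo muscle, against 9.81 and 9.87 in saline muscle. The difference was 0.054 ± 0.16, and the ProMyo array of animals 1-4 lay below the saline array of animals 5-8, so the groups overlapped. The next brightest of its probe sets read 0.14, and the third, at 9.52 and 9.38 in ProMyo muscle against 9.17 and 9.13 in saline muscle, read 0.34 in animals 1-4 and 0.25 in animals 5-8. Each of these probe sets was higher in ProMyo muscle in both pools, by sizes that differ several-fold between them.

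**Figure D3:**
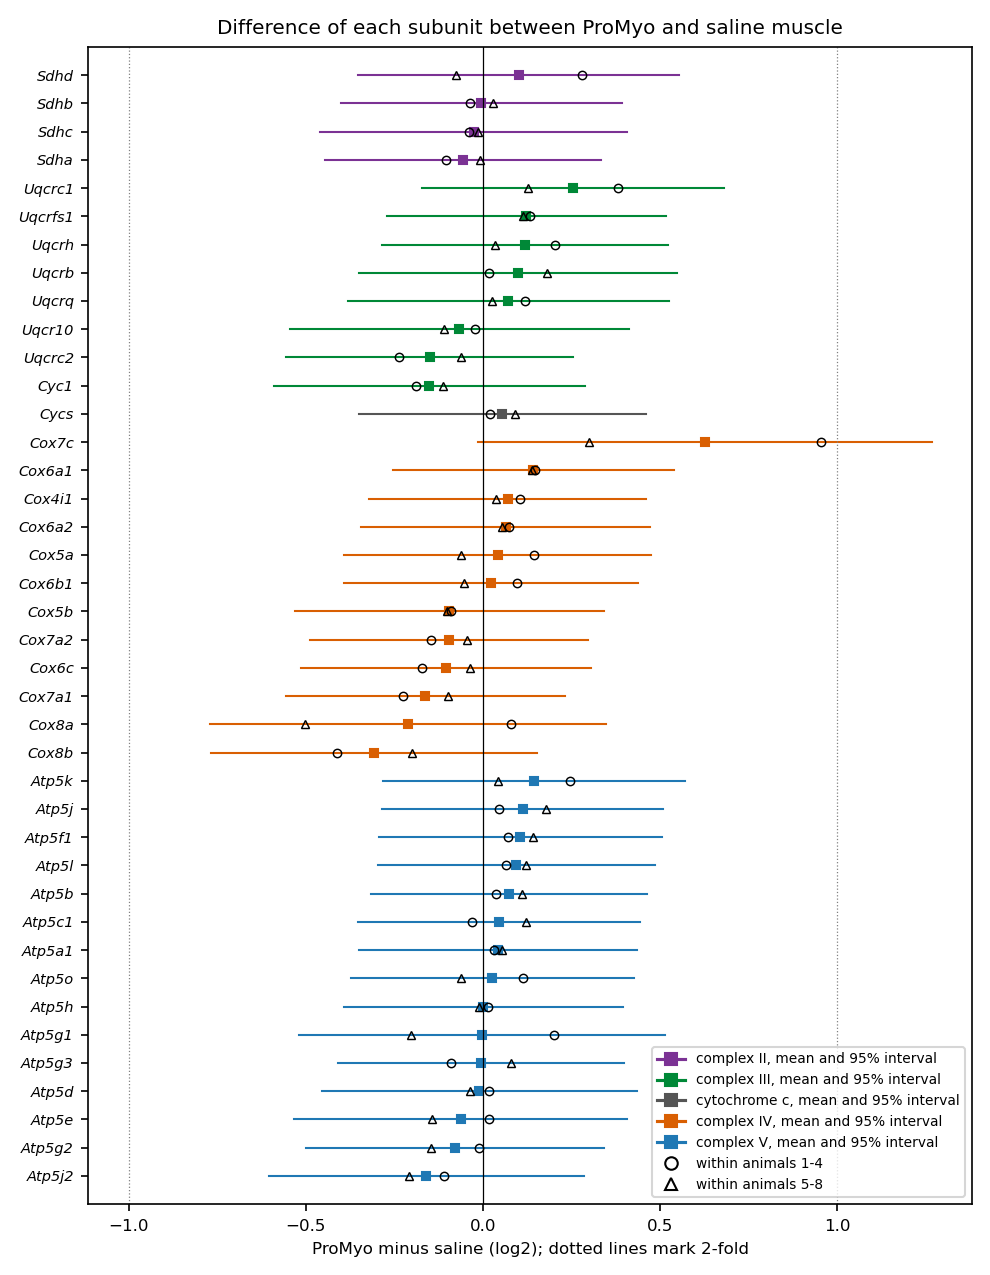
Difference between ProMyo and saline muscle (x axis, log2, ProMyo minus saline) of each gene (y axis), grouped by complex: squares with bars are limma's mean and 95% interval, open circles the difference within animals 1-4 and open triangles within animals 5-8. Every interval crosses 0, and only that of Cox7c passes one of the dotted 2-fold lines; Uqcrc1 stands highest in complex III and Cox8b lowest of all.

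Complex IV held 12 measured genes, 4 higher and 5 lower in both pools, with a median of -0.037 and the widest range of the complexes, -0.31 to 0.63. The median ran from -0.080 without the ProMyo array of animals 1-4 to 0.051 without that of animals 5-8, and was positive without either saline array. Cox4i1, the large nuclear subunit that binds ATP and tunes the enzyme, was at 10.54 and 10.47 in ProMyo muscle, against 10.44 and 10.44 in saline muscle, a difference of 0.070 ± 0.15. Both ProMyo arrays were higher, by little. Cox7c had the largest difference of the 40 genes over all 4 arrays at the brightest probe sets: 3.12 and 2.47 in ProMyo muscle, against 2.16 and 2.17 in saline muscle, or 0.63 ± 0.25 (limma, adjusted p = 0.82). The saline arrays were nearly equal and the ProMyo arrays were not, with 0.95 in animals 1-4 and 0.30 in animals 5-8. This probe set was dim beside most others here and the gene's other probe set was at background, so how well it reads Cox7c was not tested. Its difference was 0.30 both without the ProMyo array of animals 1-4 and with the mean of its probe sets. Without Cox7c the median of the remaining genes was 0.022. Among the others, Cox5a and Cox5b stood at 0.041 and -0.096, Cox6b1 at 0.022 and Cox6c at -0.10.

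Subunits 6a, 7a and 8 of complex IV each come as a muscle form and a ubiquitous form, which allows a comparison within each array. The muscle forms are encoded by Cox6a2, Cox7a1 and Cox8b in the mouse and the ubiquitous forms by Cox6a1, Cox7a2 and Cox8a. Cox6a2 was at 10.82 and 10.69 in ProMyo muscle, against 10.74 and 10.64 in saline muscle (difference 0.065 ± 0.16), and overlapped. Cox6a1 was at 7.00 and 6.92 in ProMyo muscle, against 6.85 and 6.78 in saline muscle (difference 0.14 ± 0.16). Of this pair only the ubiquitous form had both ProMyo arrays above both saline arrays at the brightest probe set. The next brightest probe set of Cox6a1 was at 4.39 and 4.42 in ProMyo muscle, against 4.51 and 3.90 in saline muscle. There the groups overlapped, with -0.12 in animals 1-4 and 0.52 in animals 5-8.

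Cox7a1 was at 8.46 and 8.53 in ProMyo muscle, against 8.68 and 8.62 in saline muscle (difference -0.16 ± 0.15). Cox7a2 was at 10.97 and 10.99 in ProMyo muscle, against 11.11 and 11.04 in saline muscle (difference -0.096 ± 0.15). Both forms of subunit 7a were thus lower in ProMyo muscle on both arrays, but the next brightest probe set of Cox7a2 read 0.048.

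Cox8b had the lowest difference of the 40 genes over all 4 arrays at the brightest probe sets, with 9.86 and 9.77 in ProMyo muscle, against 10.27 and 9.97 in saline muscle. The difference was -0.31 ± 0.18, a ratio of 0.809 with an interval of 0.588 to 1.11 (limma, adjusted p = 0.84). It was lower in ProMyo muscle by 0.41 in animals 1-4 and 0.20 in animals 5-8, in log2 units, and the groups did not overlap. In limma with a variance trend Cox8b was the member with the smallest p (unadjusted 0.029, adjusted p = 0.81). Without the saline array of animals 1-4 its difference was -0.16, above the -0.46 of Cox8a. With the mean of each gene's probe sets Atp5g1 (-0.40) and Atp5j2 (-0.38) lay below it, each through a dim probe set. That of Atp5j2 was under the brightest background control on the ProMyo arrays, and the gene's brighter probe sets read -0.16 and 0.0089. That of Atp5g1 lay above the background control and read -0.79, while the brightest read -0.0019. Cox8a, the counterpart of Cox8b, was at 4.49 and 4.42 in ProMyo muscle, against 4.42 and 4.92 in saline muscle. Its difference of -0.21 ± 0.22 thus came from the saline array of animals 5-8. Without that array it was 0.040, and the next brightest probe set read 0.045.

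The change of the muscle form relative to the ubiquitous form within an array was -0.078 for subunit 6a, -0.066 for subunit 7a and -0.095 for subunit 8 (ProMyo minus saline). At the brightest probe sets it was close in both pools for subunit 6a (-0.071 in animals 1-4 and -0.084 in animals 5-8) and subunit 7a (-0.078 and -0.055). For subunit 8 it was opposite (-0.49 and 0.30). An exact two-sided permutation test over the 4 arrays gave p = 0.333 for subunits 6a and 7a and p = 1.0 for subunit 8 (0.5, 0.5 and 1.0 after adjustment over the 3 pairs), where 0.333 is the smallest p that 2 arrays against 2 allow. The mean over the 3 pairs was -0.080, -0.072 without subunit 8, -0.17 with the mean of each gene's probe sets, 0.057 without the saline array of animals 1-4 and -0.22 without that of animals 5-8.

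**Figure D4:**
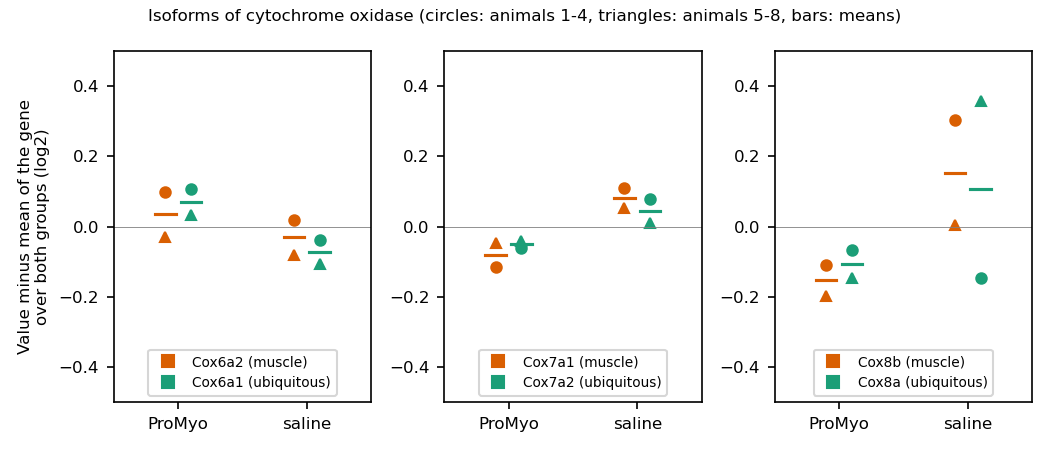
Muscle form (orange) and ubiquitous form (green) of subunits 6a, 7a and 8 of cytochrome oxidase in ProMyo and saline muscle; the y axis gives the log2 value minus the gene's mean over both groups, circles are animals 1-4, triangles animals 5-8 and bars the group means. The group means of both forms of a subunit lie on the same side, and the widest spread is that of Cox8a in saline muscle.

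Complex V had 15 genes, 6 higher and 2 lower in both pools, with a median of 0.026 (0.010 to 0.070 with 1 array left out, -0.015 with quantile normalization) and differences between -0.16 and 0.14, the second narrowest range of the 4 complexes after complex II. Atp5b, the catalytic beta subunit, was at 10.24 and 10.26 in ProMyo muscle, against 10.21 and 10.15 in saline muscle. Its difference of 0.074 ± 0.15, a ratio of 1.05 with an interval of 0.803 to 1.38, was small although both ProMyo arrays were above both saline arrays. The alpha and gamma subunits, Atp5a1 and Atp5c1, stood at 0.042 and 0.045. Atp5k, subunit e, which helps the enzyme to dimerise, had the highest difference: 10.05 and 9.83 in ProMyo muscle, against 9.80 and 9.78 in saline muscle, or 0.14 ± 0.17. Atp5j2, subunit f, had the lowest, with 10.42 and 10.19 in ProMyo muscle, against 10.53 and 10.39 in saline muscle, or -0.16 ± 0.17, and its next brightest probe set read 0.0089. Stalk subunits fell in between, with Atp5f1 (subunit b) at 0.11, Atp5j (F6) at 0.11, Atp5o (OSCP) at 0.026 and Atp5h (subunit d) at 0.0013. Subunit g (Atp5l) was at 0.094, delta (Atp5d) at -0.011 and epsilon (Atp5e) at -0.063.

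Atp5g1, Atp5g2 and Atp5g3 encode the same mature subunit c, which builds the rotor ring, behind different import sequences. Atp5g1 was at 9.96 and 9.53 in ProMyo muscle, against 9.76 and 9.73 in saline muscle, a difference of -0.0019 with the ProMyo arrays on either side of the saline ones. Atp5g2 was at 8.43 and 8.23 in ProMyo muscle, against 8.44 and 8.37 in saline muscle (difference -0.079 ± 0.17). Atp5g3 was at 10.97 and 11.00 in ProMyo muscle, against 11.06 and 10.92 in saline muscle (difference -0.0054 ± 0.16). In none of these 3 genes were the groups apart at the brightest probe set. A second, dim probe set of Atp5g1 behaved otherwise, with 1.86 and 1.93 in ProMyo muscle, against 2.74 and 2.63 in saline muscle, a difference of -0.79 that was -0.88 in animals 1-4 and -0.70 in animals 5-8. What part of the transcript this probe set reads was not analysed here.

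Other probe sets gave a check of the members that did not use the brightest one. For 26 of the 40 genes a further probe set lay above the background controls on all 4 arrays, and 14 of these 26 had the same sign of difference at both. The next brightest sets had a median difference of 0.0021 and ran from -0.79 (Atp5g1) to 0.20. The sign differed between both probe sets in the other 12.

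**Figure D5:**
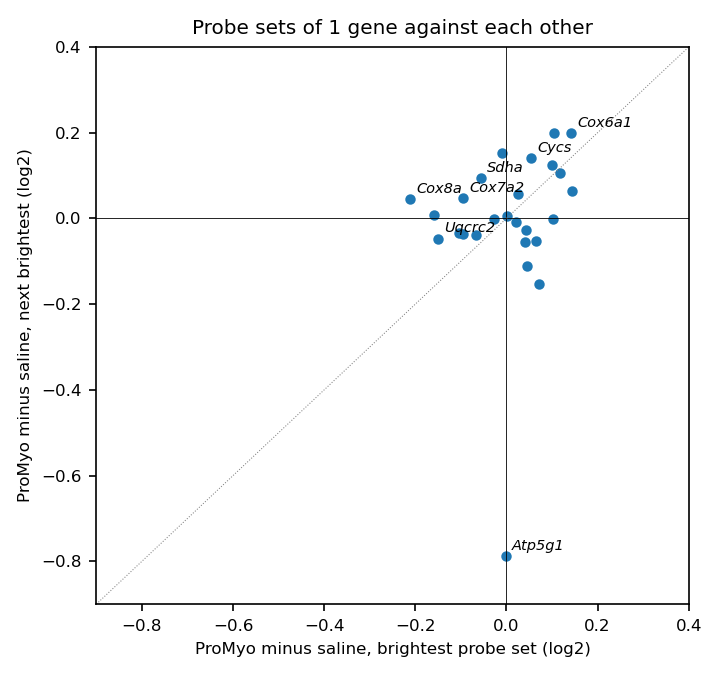
Difference between ProMyo and saline muscle (log2, ProMyo minus saline) at the brightest probe set of a gene (x axis) and at its next brightest (y axis) for the 26 genes with a second probe set above the background controls; the dotted line marks equality. Apart from Cox8a (-0.21 on the x axis) and Atp5g1 (-0.79 on the y axis) the points lie within 0.2 of 0 on both axes.

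Assembly factors build the complexes without staying in them. Of 33 measured, 12 had higher and 6 lower values in both pools (median 0.040), against 29.0% and 24.0% of all genes. None passed limma's test. Sco2, which delivers copper to complex IV, was at 3.50 and 3.39 in ProMyo muscle, against 2.92 and 2.99 in saline muscle, or 0.48 ± 0.16 (limma, adjusted p = 0.82). Of the 33 assembly factors it was the only 1 with an unadjusted p under 0.05 in limma, which 874 of all 15102 genes (5.79%) had. Pet100, another factor of complex IV assembly, was at 5.31 and 5.33 in ProMyo muscle, against 5.73 and 5.59 in saline muscle, or -0.34 ± 0.16. These factors were picked for the smallest p among the 20 measured for complex IV, and they lay apart in opposite directions. Of those 20, 8 were higher and 4 lower in both pools. Tmem70, which is needed to assemble complex V, was at 5.69 and 5.63 in ProMyo muscle, against 5.40 and 4.97 in saline muscle, or 0.47 ± 0.20. Atpaf2, a chaperone of its F1 part, was at 3.05 and 2.33 in ProMyo muscle, against 2.76 and 2.31 in saline muscle, with overlap.

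For complex III, Uqcc3 was at 4.84 and 4.71 in ProMyo muscle, against 4.59 and 4.42 in saline muscle, or 0.27 ± 0.17. Bcs1l, which inserts the Rieske protein, was at 5.73 and 5.61 in ProMyo muscle, against 6.19 and 5.73 in saline muscle, or -0.29 ± 0.21. Here too the factors were those with the smallest p, and their values went opposite ways. Of the 6 measured for complex III, 2 were higher and 2 lower in both pools. For complex II, Sdhaf2 was at 5.03 and 5.02 in ProMyo muscle, against 5.21 and 4.94 in saline muscle. Sdhaf4 was at 5.48 and 5.36 in ProMyo muscle, against 5.36 and 5.53 in saline muscle. Both overlapped, with differences of -0.050 and -0.024.

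Of 10 other subunits and isoforms measured, 3 had higher and 3 lower values in both pools. Atpif1, the inhibitor protein of ATP synthase, was at 5.45 and 5.48 in ProMyo muscle, against 5.24 and 4.67 in saline muscle, or 0.51 ± 0.23 (limma, adjusted p = 0.83). Its difference was 0.21 in animals 1-4 and 0.81 in animals 5-8, and the groups did not overlap. With ProMyo higher that was true of 2 of these 10 genes and of 17.8% of all genes. Atpif1 and Cox6b2 were picked for the smallest p among the 10. Cox6b2, a testis form, was at 1.33 and 1.56 in ProMyo muscle, against 1.20 and 0.68 in saline muscle, the last of them below the brightest background control.

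Carriers exchange ATP, ADP and phosphate with the cytosol. Slc25a3, for phosphate, was at 9.71 and 9.65 in ProMyo muscle, against 9.70 and 9.57 in saline muscle, and Slc25a5, for ATP and ADP, was at 6.69 and 6.50 in ProMyo muscle, against 6.59 and 6.75 in saline muscle. Both overlapped. Of 11 regulators of respiratory genes 3 had higher and 3 lower values in both pools. The nuclear receptor Esrrg was at 7.37 and 7.51 in ProMyo muscle, against 7.25 and 7.05 in saline muscle, or 0.29 ± 0.17. Its relative Esrra was at 3.72 and 3.50 in ProMyo muscle, against 4.17 and 3.75 in saline muscle, or -0.35 ± 0.21. Neither receptor's groups overlapped, but both receptors were picked for the smallest p among the 11 regulators. Of these 11, 1 was higher and 2 were lower without overlap, against 17.8% and 15.7% of all genes. None of the carriers or regulators passed limma's test (smallest adjusted p = 0.84, for both receptors).

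Complex I, the entry point of the chain for NADH, is the closest set for comparison. Of its 32 measured genes 7 had higher and 15 lower values in ProMyo muscle in both pools, with a median of -0.034 and a range of -0.21 to 0.23. Over all genes 29.0% were higher and 24.0% lower in both pools. In complexes II to V the counts were 16 and 12 of 40, with a median of 0.024, but 9 and 16 with quantile normalization. Complex I was not read under the alternatives. All these lists come from the same arrays, and the difference between them was not tested. Ndufs4, an accessory subunit, was at 8.25 and 8.03 in ProMyo muscle, against 7.93 and 7.89 in saline muscle. Ndufb8, another, was at 9.61 and 9.54 in ProMyo muscle, against 9.89 and 9.65 in saline muscle. Their differences were 0.23 ± 0.17 and -0.20 ± 0.17, without overlap in either gene. Both were picked for the smallest p among the 32. Of these 32, 4 were higher and 6 lower without overlap, against 17.8% and 15.7% of all genes.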

How the data were processed

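Per the labels, RNA was taken up in Tri-reagent, mixed in equal amounts from 4 animals per array and labelled with Nugen kits. Per the submitters' processing notes, the authors summarised the arrays by RMA in Affymetrix Expression Console; the deposited values are read here as log2, a base judged from their range since no source used here states it.

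Of 45101 probe sets, 64 controls were left out and 34945 had a single gene name. Genes were not tested where the brightest probe set averaged under 0.454, the 25th percentile of all non-control probe sets. The comparison of ProMyo with saline used limma 3.58.1 (R 4.3.3; lmFit, eBayes, Benjamini-Hochberg over 15102 genes, threshold 0.05), with 2 residual degrees of freedom; the script was tested on simulated data. The main fit ignores that both legs come from the same mice; pools with the same animal numbers are paired by the design (r = 0.16 between their deviations across genes). The background limit was the brightest Bacillus control (0.986). Arrays have no read depth, and 2 per group limit the precision. Members and lists were chosen with earlier results of these data known. Values on every array were given for the highest and lowest of each complex, Cycs, the subunit c genes and both forms of subunits 6a, 7a and 8. They were also given for Sdha, Sdhb, Uqcrc1, Cox4i1 and Atp5b, and from the other lists for the 2 smallest p per list. Genes at least 1.5-fold apart in both pools were to be included, but none of these lists held one. The cell markers, of which Pi16 was that far apart, were summarised by list. Alternatives were the pool as a block, other filters, a variance trend, other scalings, the mean or next brightest of a gene's probe sets, and leaving out each array.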

Additional observations from a re-analysis of the deposited data

How the results depend on the processing

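No alternative ended or made a call: limma called 0 genes in each, with 353 to 1599 at an unadjusted p under 0.05. With the paired pools as a replicate block the count was 0 (1039 at an unadjusted p under 0.05), the smallest adjusted p of a member was 0.68, and the pairing changed no other call. The members' median stayed between -0.026 and 0.064 with an array left out, and quantile normalization gave -0.012. Quantile normalization gave 9 members higher in both pools (25% of all genes) and 16 lower (29.9%). With an array left out, 6 to 18 members were lower by the remaining arrays, 6 without the ProMyo array of animals 5-8 (27.3% of all genes) and 18 without that of animals 1-4 (32.0%), and the complex III median ran from -0.0040 without the ProMyo array of animals 1-4 to 0.086; the cause was not tested. At an unadjusted p under 0.05 in limma there were 0 of 40 members in the fit reported, beside 874 of 15102 genes (5.79%). With a variance trend there was 1 member, beside 908 of all 15102 genes. With the mean of probe sets there were 2 members, beside 881 of all 15102 genes. None of these members was called. Leaving out the Cox8 pair, Cox7c or Atp5f1 was added after the data were seen.

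Of 210 values of 20 named members under the alternatives 17 had the opposite sign, and 9 members never did. The mean of probe sets gave 0.051 for Sdha. The next brightest probe set gave 0.094 for Sdha, -0.0013 for Sdhd, -0.054 for Cox6a2, 0.048 for Cox7a2, 0.045 for Cox8a and 0.0089 for Atp5j2. Leaving out 1 array turned the sign of Sdhb (range -0.055 to 0.046), Sdhd (-0.044 to 0.25), Cycs (-0.013 to 0.12), Cox8a (-0.46 to 0.040), Atp5g1 (-0.22 to 0.21), Atp5g2 (-0.18 to 0.021) and Atp5g3 (-0.074 to 0.063). With 2 pooled arrays per group, differences as small as these are hard to resolve.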
